A study of Sus scrofa with 2 samples.

Results

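Fragments of 2 transfer RNAs, the valine tRNA with anticodon CAC (Val-CAC) and the leucine tRNA with anticodon CAG (Leu-CAG), were counted in small RNA libraries of pig oocytes. A read was taken as a fragment when it was 18 to 40 nt long and matched the sense strand of the mature tRNA, including the CCA added to its 3' end, with at most 1 substitution. The names Val-CAC and Leu-CAG stand here for all matches to the rebuilt sequences. Most Val-CAC reads that cover the first anticodon base had G there and not C, as described below. The Val-CAC fragments thus include those of another valine tRNA. Whether the Leu-CAG fragments include those of another leucine tRNA was not tested. By this rule 354 distinct sequences of the 1166705 in the data were fragments, 253 of Val-CAC and 101 of Leu-CAG. Of these, 139 were seen as a single read and 11 reached 100 reads in both libraries together. The 5' fragments start at position 1 or 2 of the tRNA, the 3' fragments end inside the CCA, and all others are called internal.

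Both libraries came from pig oocytes matured in vitro for 42 h to metaphase II, the stage at which the egg is ready for fertilisation. In the Dicer KD library, Dicer had been knocked down by siRNA at the earlier germinal vesicle stage, and the control library came from oocytes without that knockdown. Dicer is the ribonuclease that cuts hairpins and long double-stranded RNA into miRNAs and siRNAs. How many oocytes went into each library, and what the control oocytes received, was not given in the sources used here, and small RNA reads do not measure the Dicer transcript. Each group had a single library. No test between groups could therefore be made, and each ratio compares 1 library with another and not the conditions. The control library held 11836160 reads and the Dicer KD library 11982925. Fragments of both tRNAs made up 5728 reads, or 0.0484%, of the control library and 5685 reads, or 0.0474%, of the Dicer KD library. Levels are RPM, the reads of an item scaled to the size of its library, and ratios are Dicer KD over control. Intervals are at 95% and cover counting error only, since amplified reads were counted with no molecular identifiers.

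tRNAs carry amino acids to the ribosome, and stable pieces of them are found in most small RNA libraries. Cuts in the anticodon loop give long fragments of either side, cuts in or near the D arm give short 5' fragments, and cuts in the T loop give short 3' fragments that keep the CCA. Dicer has been described as the source of some short fragments, while others form without it, and such fragments are known from sperm, oocytes and stressed cells.

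The parts of each tRNA that could be rebuilt from the deposited reads are shown first, because every position below refers to them. Capitals mark the anticodon in the 5' parts, and the T-loop word TTCGA and the CCA in the 3' parts. Positions in a 5' part are counted from its first base, and positions in a 3' part are counted backwards from the last A of the CCA, which is 1.

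Val-CAC 5' part: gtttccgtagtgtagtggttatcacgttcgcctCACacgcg

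Val-CAC 3' part: cggTTCGAaaccgggcggaaacaCCA

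Leu-CAG 5' part: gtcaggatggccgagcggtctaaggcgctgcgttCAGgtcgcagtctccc

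Leu-CAG 3' part: TTCGAatcccacttctgacaCCA

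These parts are 41 and 26 nt long for Val-CAC and 50 and 23 nt for Leu-CAG. The stretch between the parts was not rebuilt, so fragments lying within it are not counted. The first 7 bases of the Val-CAC 5' part pair with the 3' part at all 7 positions of the acceptor stem. In Leu-CAG 6 positions form Watson-Crick pairs, and the remaining one is a G-T pair between position 6 of the 5' part and position 10 of the 3' part. The stem bases of the 5' side, and part of those of the 3' side, lay in words from background knowledge that started the rebuilding. The pairing is therefore no independent check of the parts. No read matched the antisense strand or the reversed sequence of either tRNA. In the RefSeq annotation of the pig assembly Sscrofa11.1, 10 genes are named TRNAV-CAC and 11 TRNAL-CAG, so a fragment stems from a group of gene copies, not from 1 locus.

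The leading fragments carry most of the reads and set the class totals. In those with a substitution, the capital is the base that differs from the rebuilt part.

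Val-CAC 5' fragment of 23 nt: gtttccgtagtgtagtggttatc

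Val-CAC 5' fragment of 33 nt: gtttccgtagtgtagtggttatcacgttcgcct

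Val-CAC 3' fragment of 22 nt: tcgaaaccgggcggaaacacca

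Val-CAC 3' fragment of 22 nt, A19T: tcgTaaccgggcggaaacacca

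Val-CAC 3' fragment of 22 nt, A17G: tcgaaGccgggcggaaacacca

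Val-CAC 3' fragment of 18 nt: aaccgggcggaaacacca

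Leu-CAG 5' fragment of 26 nt: gtcaggatggccgagcggtctaaggc

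Leu-CAG 3' fragment of 22 nt: tcgaatcccacttctgacacca

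Leu-CAG 3' fragment of 22 nt, T10C: tcgaatcccactCctgacacca

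Leu-CAG 3' fragment of 22 nt, A19T: tcgTatcccacttctgacacca

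Val-CAC fragments were the more abundant and were near equal in the libraries, while Leu-CAG fragments were lower in the Dicer KD library. Val-CAC fragments had 4114 control reads (348 RPM) and 4376 Dicer KD reads (365 RPM), a ratio of 1.05 (1.01 to 1.10). This small excess depended on what the reads were scaled to. Relative to reads that do not start with T, which were themselves 1.10-fold more of the Dicer KD library, the Val-CAC ratio was 0.955 (0.915 to 0.996). Leu-CAG fragments had 1614 control reads (136 RPM) and 1309 Dicer KD reads (109 RPM), a ratio of 0.801 (0.744 to 0.862). The Leu-CAG ratio stayed below 1 under both scalings, at 0.728 relative to reads that do not start with T.

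Few single fragments differed by 2-fold. Of the 11 fragments with at least 100 reads, 1 was at least 2-fold higher in the Dicer KD library and 1 at least 2-fold lower, where 5.71% and 5.69% of all 13633 sequences of that depth were. The higher one was the A19T form of the 22-nt Val-CAC 3' fragment and the lower one the T10C form of the 22-nt Leu-CAG 3' fragment. Of the 69 fragments with at least 10 reads, 8 were higher and 13 lower, where the share over all 92198 sequences of that depth was 15.1% higher and 17.0% lower. None of the 3 fragments with at least 1000 reads passed 2-fold in either direction, where 4.70% of all such sequences were higher and 3.24% lower. The median ratio was 1.04 over the 8 Val-CAC fragments of at least 100 reads and 0.728 over the 3 Leu-CAG fragments, against 0.959 over all sequences of that depth.

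The 5' fragments of Val-CAC were near equal in sum relative to all reads, and slightly lower in the Dicer KD library relative to reads that do not start with T. They held 1446 control reads (122 RPM) and 1470 Dicer KD reads (123 RPM), a ratio of 1.0 (0.933 to 1.08), and made up 35.1% and 33.6% of the Val-CAC fragments. Relative to reads that do not start with T the ratio was 0.912 (0.848 to 0.982). Most of them, 73.0% and 75.2%, were 23 nt long. The exact 23-nt sequence, which ends before the anticodon loop, had 985 and 1042 reads, a ratio of 1.04 (0.957 to 1.14). Its extension by 1 base, at 24 nt, was slightly lower in the Dicer KD library, with 144 and 110 reads and a ratio of 0.755 (0.583 to 0.974).

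A minority of the Val-CAC 5' fragments ended at the base before the anticodon. The 33-nt fragment, which starts at position 1 and stops there, had 85 and 67 reads. Its ratio was 0.779 (0.557 to 1.09), which counting error at this depth covers. All reads of 33 nt were in sum 4.34-fold higher in the Dicer KD library (4.14 to 4.55), which this fragment did not follow. Fragments with any start that end at this base had 235 and 220 reads, a ratio of 0.925 (0.766 to 1.12). Fragments that start at position 2 in place of 1 were the more frequent in the Dicer KD library, with 33 and 67 reads and a ratio of 2.01 (1.30 to 3.14). The exact 22-nt sequence from position 2 had 18 and 36 of these reads, a ratio of 1.98 (1.09 to 3.70). A T2G form, with 0 and 4 reads, may also be read as starting at position 1 with 1 T missing. This start was not among the results set beforehand.

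The 5' fragments of Leu-CAG were lower in the Dicer KD library, and 1 sequence carried the difference. The class had 941 control reads (79.5 RPM) and 746 Dicer KD reads (62.3 RPM), a ratio of 0.783 (0.710 to 0.863). The 26-nt sequence alone had 746 reads (63.0 RPM) and 550 reads (45.9 RPM), a ratio of 0.728 (0.651 to 0.814). It was the leading Leu-CAG fragment of both libraries, and its C16T form was read 29 and 17 times. Without it the other Leu-CAG 5' fragments had 195 and 196 reads, a ratio of 0.993 (0.810 to 1.22). All reads of 26 nt had a ratio of 1.04, and those not starting with T 1.23.

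Leu-CAG 5' fragments of 18 and 22 nt went the other way, and other short lengths did not. Those of 22 nt had 37 and 60 reads, a ratio of 1.60 (1.05 to 2.48), and those of 18 nt had 13 and 27 reads, a ratio of 2.05 (1.02 to 4.33). Those of 21 nt were read 23 and 15 times, with a ratio of 0.644 (0.313 to 1.29), and those of 24 nt 10 and 4 times. All reads of 18 nt were also higher in the Dicer KD library, with a ratio of 1.26, whereas all reads of 22 nt had a ratio of 0.930. The share of 26-nt fragments among the Leu-CAG 5' fragments was 90.3% (88.3 to 92.1%) for the control and 84.9% for the Dicer KD library, and these lengths were picked out after their values were seen. A form of the 26-nt fragment with T19G, counted from the 5' end, was in the control library alone. T19G was read 17 times over 2 lengths there and 0 in the Dicer KD library, a ratio of at most 0.174 when the 0 is set to the floor of 3 reads, worth 0.250 RPM.

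The 3' fragments were the largest Val-CAC class and shared 1 cut site with those of Leu-CAG. Val-CAC 3' fragments had 2309 control reads (195 RPM) and 2538 Dicer KD reads (212 RPM), a ratio of 1.09 (1.03 to 1.15), which was 0.986 (0.932 to 1.04) relative to reads that do not start with T. Reads of 22 nt made up 82.4% and 81.9% of them. In Leu-CAG the same length made up 86.5% and 86.8% of the 3' fragments. Both 22-nt fragments start at position 22, at the second T of TTCGA, and so begin with tcga. Reads starting at this base were 85.0% and 83.8% of the Val-CAC 3' fragments and 94.3% and 95.3% of those of Leu-CAG.

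The unchanged 22-nt Val-CAC fragment was nearly equal in both libraries, with 1652 reads (139.6 RPM) and 1730 reads (144 RPM), a ratio of 1.03 (0.966 to 1.11). The 18-nt fragment, which lacks the first 4 bases and starts at the base after the last A of TTCGA, had 207 and 243 reads, a ratio of 1.16 (0.959 to 1.40). Its difference was within counting error, and all reads of 18 nt had a ratio of 1.26. The CCA was complete in 97.2% of control and 97.6% of Dicer KD Val-CAC 3' fragments. In Leu-CAG it was complete in 91.6% and 91.3%, and the reads that ended in CC were 8.40% and 8.71%. The trimming of the CCA was thus within counting error between the libraries for both tRNAs.

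Leu-CAG 3' fragments existed in 2 forms, and only the form with C at position 10 was lower in the Dicer KD library beyond counting error. The class had 524 control reads (44.3 RPM) and 425 Dicer KD reads (35.5 RPM), a ratio of 0.801 (0.703 to 0.912). The 22-nt fragment without a substitution had 174 reads (14.7 RPM) and 183 reads (15.3 RPM), a ratio of 1.04 (0.840 to 1.29). The 22-nt T10C fragment had 215 reads (18.2 RPM) and 100 reads (8.35 RPM), a ratio of 0.459 (0.359 to 0.585). T10C was thus the leading 22-nt Leu-CAG 3' fragment of the control library and fell behind the T form in the Dicer KD library. Restricted to exact matches, the class ratio was 1.0 (0.827 to 1.21).

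A limit of 1 substitution loses T10C reads that differ at another base too, so the forms were counted again with any base allowed at the last A of TTCGA. Over all lengths the C form then had 277 and 159 reads, a ratio of 0.567 (0.464 to 0.692), and the T form 283 and 303 reads, a ratio of 1.06 (0.896 to 1.25). The C form was 49.5% of both forms in the control library (45.2 to 53.7%) and 34.4% in the Dicer KD library (30.1 to 38.9%). C at position 10 makes a Watson-Crick pair with the G at position 6 of the 5' part, where T makes the G-T pair. On the 5' side, G6A, which would pair with T, had 8 and 25 reads, a ratio of 3.09 (1.35 to 7.92). G6C, at the same position, went the other way, with 15 and 4 reads and a ratio of 0.263 (0.0636 to 0.827). G6A was 0.813% and 3.22% of the reads covering position 6, and G6C 1.52% and 0.515%, so both were small minorities. Whether the forms stem from different gene copies was not tested, since no genome was used.

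A single base of the T loop differed from the rebuilt sequence more often than nearly all others. It is the last A of TTCGA, at position 19 in both tRNAs. As background, this A is 1-methyladenosine in many vertebrate tRNAs, a modified base at which reverse transcriptase stops or places other bases. The modification itself was not measured in these libraries. Over the 103 positions with at least 100 covering reads, the median share of substituted reads was 0% (control) and 0.0389% (Dicer KD).

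In Val-CAC the share of reads with another base at this A was about 2-fold higher in the Dicer KD library. Among 3' fragments otherwise without a substitution, 117 of 1965 control reads, or 5.95% (4.95 to 7.09%), and 258 of 2169 Dicer KD reads, or 11.9% (10.6 to 13.3%), had another base, a ratio of the shares of 2.0 (1.60 to 2.51). T was the usual replacement, with 82 and 189 reads, followed by G, with 34 and 63 reads, and C, with 1 and 6. The 22-nt A19T fragment shown above had 73 reads (6.17 RPM) and 161 reads (13.4 RPM), a ratio of 2.18 (1.64 to 2.91). Reads of 22 nt alone gave shares of 5.60% and 11.2%. Reads that start at the A itself had the highest shares, 10 of 65 in the control library and 23 of 80 in the Dicer KD library, or 15.4% and 28.8%.

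Other substitutions in the Val-CAC 3' fragments did not show this difference. They had 180 and 155 reads, a ratio of 0.851 (0.682 to 1.06), and most of them were A17G, with 140 and 122 reads and a ratio of 0.861 (0.670 to 1.11). Outside the 3 positions with most substitutions, 0.0597% of the bases read in the Val-CAC 3' part differed in the control library and 0.0609% in the Dicer KD library. Val-CAC 3' fragments without a substitution at the T-loop A had a ratio of 1.03 (0.968 to 1.09), so the class total was closer to 1 without them. In the A17G form too few reads had another base at the T-loop A to show whether the difference was present. The T-loop A was replaced there in 5 of 144 control reads, or 3.47% (1.14 to 7.92%), and 1 of 121 Dicer KD reads, or 0.826% (0.0209 to 4.52%), a ratio of the shares of 0.238 (0.00503 to 2.13).

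In Leu-CAG the T-loop A was replaced in a larger share of reads than in Val-CAC in both libraries. With T at position 10, 70 of 283 control reads, or 24.7% (19.8 to 30.2%), and 87 of 303 Dicer KD reads, or 28.7% (23.7 to 34.2%), had another base, a ratio of 1.16 (0.838 to 1.61) that was within counting error. With C at position 10, 52 of 277 and 48 of 159 reads had another base, or 18.8% (14.3 to 23.9%) and 30.2% (23.2 to 38.0%), a ratio of 1.61 (1.06 to 2.43). Both forms together gave 21.8% and 29.2%, a ratio of 1.34 (1.04 to 1.73). The 22-nt A19T fragment of Leu-CAG with T at position 10 had 32 and 53 reads, a ratio of 1.64 (1.04 to 2.62). With C at position 10 it had 41 and 33 reads. When only 1 substitution was allowed in all, the ratio of the shares was 1.53, because C-form reads then counted only when their T-loop A was unchanged and these were fewer in the Dicer KD library. Whether the Val-CAC and Leu-CAG ratios differ was not tested.

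The same base was examined in other 22-nt reads that end in CCA and begin like these fragments. Of 12 such sequences with at least 100 reads, the share with another base was higher in the Dicer KD library in 8, lower in 2 and 0% in both libraries in 2. The intervals of the 2 libraries lay apart in 1 of the 8 and in none of the others. Their median share was 6.59% (control) and 9.62% (Dicer KD). The pooled share was 11% (control) and 15.4% (Dicer KD), and the latter was 13% with each sequence weighted by its control reads. This comparison was added after the Val-CAC values had been seen. A single library stands behind each share, so the spread between oocyte pools is unknown.

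Internal fragments had the fewest reads of the 3 classes in both tRNAs, and in Val-CAC the most distinct sequences. Those of Val-CAC had 103 distinct sequences with 359 and 368 reads, a ratio of 1.01 (0.873 to 1.17). The leading one is 30 nt long, runs from position 4 to 33 and thus shares its end with the 33-nt 5' fragment. It had 84 and 103 reads, a ratio of 1.21 (0.899 to 1.64). Internal fragments ending at position 33 were 39.3% and 40.5% of the class. Those of Leu-CAG had 28 distinct sequences with 149 and 138 reads, a ratio of 0.915 (0.720 to 1.16). Neither class differed beyond counting error.

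The leading internal fragments, and the leading one with C34G, were these, with A7G and C34G counted from the 5' end and the differing base in capitals.

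Val-CAC internal fragment of 30 nt: tccgtagtgtagtggttatcacgttcgcct

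Val-CAC internal fragment of 25 nt, C34G: gtggttatcacgttcgcctGacacg

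Leu-CAG internal fragment of 24 nt, A7G: Gtggccgagcggtctaaggcgctg

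Leu-CAG internal fragment of 21 nt: aggatggccgagcggtctaag

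The 24-nt A7G fragment of Leu-CAG had 30 and 41 reads, a ratio of 1.35 (0.823 to 2.24). Its differing base is its first, so it may also be read as a fragment of another RNA that shares the following bases. Longer reads that hold it and match neither tRNA had 0 and 4 reads. With A at position 7 the same 24 nt had only 2 and 1 reads. Some reads outside the rule began further upstream and had G6C beside A7G. Of these, a 22-nt sequence had 0 and 5 reads and a 23-nt sequence 1 and 3. Which RNA the A7G reads stem from was not tested. The 21-nt fragment covers positions 4 to 24. Its 35 control and 27 Dicer KD reads gave a ratio of 0.762 (0.444 to 1.30). A 23-nt fragment from position 8 to 30 was near equal, with 20 and 19 reads. In Val-CAC the 25-nt C34G fragment was read 14 and 8 times, and an 18-nt fragment from position 15 to 32 was read 26 and 25 times. An 18-nt fragment that begins like the 22-nt 3' fragment but stops before the CCA was read 28 and 17 times, with a ratio of 0.600 (0.308 to 1.13). None of these intervals lay wholly on one side of 1.

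Fragments that cover the first anticodon base show that reads assigned to Val-CAC held more than 1 valine tRNA. Of the reads covering position 34, 94 in the control library and 88 in the Dicer KD library, C was read in 31 and 32 and G in 63 and 56. G was thus 67.0% (56.6 to 76.4%) and 63.6% (52.7 to 73.6%), and neither A nor T was read. As background, the valine tRNA with anticodon AAC carries inosine at this base, which is read as G. The RefSeq annotation has 10 genes named TRNAV-AAC. Fragments that stop before position 34 could not be assigned to either valine tRNA, and the same holds for the 3' fragments. In Leu-CAG all 21 control and 13 Dicer KD reads covering position 35, the first anticodon base, had C. They were few of the 1614 and 1309 Leu-CAG reads, and reads differing at more than 1 base were not counted. A leucine tRNA that differs at more bases around the anticodon could therefore not appear among them. The RefSeq annotation also names leucine tRNA genes with other anticodons, such as 7 TRNAL-CAA and 7 TRNAL-AAG genes. Whether the Leu-CAG fragments that do not cover the anticodon include those of other leucine tRNAs was not tested.

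A split by base composition gave pooled ratios near 1. Fragments of both tRNAs with at least 50% GC had 4225 and 4134 reads, a ratio of 0.966 (0.926 to 1.01), and those under 50% GC had 1503 and 1551, a ratio of 1.02 (0.949 to 1.09). The 26-nt Leu-CAG fragment had 65.4% GC, and the 22-nt Val-CAC 3' fragment had 59.1%. Most reads under 50% GC were Val-CAC 5' fragments. The group with more GC pooled Val-CAC 3' fragments, with a ratio of 1.09, and nearly all Leu-CAG fragments, with a ratio of 0.801. The split therefore does not separate GC from tRNA and class, and whether levels depended on GC was not tested.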

How the data were processed

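Small RNA of 2 libraries, 1 control and 1 Dicer KD, was prepared by adapter ligation, reverse transcription and PCR, per the labels' protocols. The authors deposited raw read counts for each distinct sequence. The submitters' processing notes name Bowtie2. Its version and role, the genome build and the trimming are not given in the sources used here.

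No tRNA sequence was at hand, so both tRNAs were rebuilt from the pooled reads. The walk began at 3 words per tRNA of 8 to 9 nt (first bases, anticodon loop, last bases), written from background knowledge. The most abundant fitting read with each word was the starting read, used whole for the end words and from the word onward for the loop. Each base added beyond the starting reads had at least 4 reads behind a context of 18, 16 or 14 nt and 1.5 times the reads of the next base. These settings were chosen after others had been tried and judged against background knowledge of vertebrate tRNAs, and settings that ran into other RNAs were dropped. Outside the starting words the rebuilt base was that of the starting read or the one with most reads in its context. A substitution there is therefore mostly a minority base. Bases of the starting reads did not have to pass the 1.5-fold rule. At position 10 of the Leu-CAG 3' part the starting read had T, with 357 reads in both libraries together, against 315 for its T10C form. The anticodon lay in a starting word, and at its first base in Val-CAC the rebuilt C had fewer reads than G. Reads that ran past the inner edge of a part were left out, 2 in Val-CAC and 1 in Leu-CAG.

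Shares have exact Clopper-Pearson intervals and ratios exact conditional intervals. A count of 0 was set to 3 reads, which is 0.253 RPM for the control and 0.250 RPM for Dicer KD. No ratio is given where both counts were at or under it. A sequence of at least 100 reads counted as changed when its ratio reached 2 or fell to 0.5. Named sequences were, per tRNA and class, the 3 with most reads (at least 10), the 3 most raised and 3 most lowered of those reaching 100 reads, and the leading sequence of the 3 positions with most substitutions per tRNA. The tRNAs, the rule for fragments and the named sequences were chosen with earlier results of these data known. The T-loop A, the forms at position 10, the other CCA reads, the bases after the CCA, the GC split and the lengths and T19G forms singled out were chosen after their values had been seen. Matching, intervals and the 2-fold rule were tested on simulated data. Alternatives covered mismatches, length window, end definition, rare sequences, scaling, the dominant sequence and the read minimum. Python 3.11.15, numpy 2.4.6 and scipy 1.17.1 were used.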

Additional observations from a re-analysis of the deposited data

Results flagged for a closer look

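Reads outside the rule stood above the control library in 2 places. Val-CAC reads with 2 substitutions, 1 more than the rule allows, had 22 control reads and 50 Dicer KD reads, a ratio of 2.24 (1.33 to 3.89). Of these, 8 and 8 had 1 of their substitutions placed at the T-loop A. Such Leu-CAG reads had 76 and 84 reads, a ratio of 1.09 (0.791 to 1.51). In 58 and 59 of them a substitution was placed at the T-loop A, most often together with T10C. Matching allowed no gaps, so some of these reads equal the 22-nt fragment without the G and A of TTCGA. A 20-nt sequence of this kind had 0 and 4 reads in Val-CAC and 2 and 8 in Leu-CAG. In Leu-CAG a 19-nt one ending in CC had 3 and 0 reads.

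Val-CAC 3' reads with bases added after the CCA, which do not match the rebuilt tRNA over their full length, had 21 control reads and 39 Dicer KD reads, a ratio of 1.83 (1.05 to 3.28). Most were extensions of the 18-nt fragment, with 19 and 28 reads, a ratio of 1.46 (0.785 to 2.76). The added bases, in capitals, were often A only.

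Val-CAC 18-nt fragment with 2 added bases: aaccgggcggaaacaccaAA

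Val-CAC 18-nt fragment with 3 added bases: aaccgggcggaaacaccaAAA

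These sequences had 3 and 9 reads and 7 and 5 reads. Of the 18-nt fragments with a complete CCA, extended reads were 8.12% (4.96 to 12.4%) for the control and 10.1% (6.82 to 14.3%) for Dicer KD. For the 22-nt fragment they were 0.105% and 0.527%, on 2 and 11 reads. Leu-CAG had 6 and 4 such reads, all on its 18-nt fragment.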

How the results depend on the processing

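Of the 80 recomputed values, 63 stayed within the interval of the reported value, and 3 of these crossed 1, in Val-CAC classes whose interval held 1. No paired analysis was possible because there was 1 library per group. Relative to reads not starting with T, the Val-CAC ratio turned to 0.955 and that of its 3' fragments to 0.986. The 5' fragments of Val-CAC moved to 0.912 (0.848 to 0.982) and all Leu-CAG fragments to 0.728. Exact matches alone took the Leu-CAG 3' ratio to 1.0, since T10C reads were left out. Without the most abundant sequence of each result, the ratios were 0.917 for Val-CAC 5' and 1.21 for Val-CAC 3' fragments, and 0.864, 0.993 and 0.683 for all, 5' and 3' Leu-CAG fragments. The same change took the share of reads with a substitution in Val-CAC from 12% to 20% in the control library and from 13.9% to 23.1% in the Dicer KD library. In Leu-CAG it went from 30% to 55.8% and from 28.5% to 49.1%. Without single-read sequences the Val-CAC control share was 10.5%. The 2 fragments changed 2-fold became 21 with at least 10 reads and 0 with at least 1000. The T-loop A ratios were chosen after the data were seen. With length, rare sequences, the forms counted together or 1 substitution in all changed 1 at a time, they ran from 1.96 to 2.04 in Val-CAC. In Leu-CAG they ran from 1.16 to 1.53. Among the values outside these ranges were the A17G form of Val-CAC (0.238) and the C form of Leu-CAG (1.61). Another was that of 22-nt Leu-CAG reads with 1 substitution in all (1.72). Depth limited fragments with under 100 reads, whose intervals often held 1.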
